A study of Homo sapiens with 2 samples.

Results

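The genes described here encode the proteasome, its regulatory caps and its assembly factors, in Huh7 cells kept in low or high glucose. They were found by their gene symbols, PSMA, PSMB, PSMC, PSMD, PSME, PSMF or PSMG followed by a number alone, which matched 48 of 25343 entries. The symbol decided membership and no measured value did; PSMC3IP and the antisense entries of PSMD5, PSMD6 and PSMG3 were left out because their symbols carry further letters. Huh7 is an established line from a well differentiated human hepatocellular carcinoma. The cells received low glucose medium (0.45 g/L) or high glucose medium (4.5 g/L) for 6 days, and live cells were reseeded when dense. Both media were given to the same unmodified line, in a base medium with fetal bovine serum. RNA of each culture was sequenced as 1 library, so every value below is a level in 1 library, no value has a replicate error and no test between media is possible.

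The proteasome is the protease that degrades most short-lived and misfolded proteins of the cytosol and nucleus once ubiquitin has marked them. Its barrel, the 20S core, stacks outer rings of alpha subunits, which form the gate, on inner rings of beta subunits, which hold the cutting sites. A 19S cap binds ubiquitin chains, unfolds the substrate with a ring of ATPases and removes the ubiquitin, and core and cap together form the 26S proteasome. Immune signals exchange the standard cutting subunits for those of the immunoproteasome, which favours peptides for display to T cells.

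Levels are given in TPM, the share of transcripts per 1000000 after correction for their length. Read numbers are unknown, and with them the depth, so no counting interval can be attached. Differences are log2(TPM + 1) in low glucose minus log2(TPM + 1) in high glucose, a scale that understates the change of low genes. Of 48 entries, 46 had a mean of at least 1 TPM over both libraries and were compared, among 13745 genes compared in all. The other 2, the testis subunit gene PSMA8 and the thymus subunit gene PSMB11, were listed at 0 in both libraries. Markers of the hepatocyte lineage were abundant in both libraries: albumin (ALB) stood at 7997 TPM in low and 8528 TPM in high glucose, and HNF4A at 154 TPM in low and 211 TPM in high glucose. All 5 markers of this list lay below 0, beside 45.3% of all genes compared. Their median difference was -0.34, from ALB (-0.09) to TTR, the transthyretin gene (-0.99). TTR stood at 682 TPM in low and 1351 TPM in high glucose. The summed level of the list was 27817 TPM in low and 34100 TPM in high glucose. This median is close to that of the proteasome genes given below, and the part of these markers in the proteasome values was not tested.

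Nearly every proteasome gene was slightly lower in low glucose, and none by 2-fold. Of the 46 genes compared, 42 lay below 0 (91.3%), while 45.3% of all genes compared did. The 4 above 0, a side that held 54.6% of all genes compared, were PSMA7, PSMB9, PSME4 and PSMG1. The median difference was -0.32, against 0.05 for all genes compared. None of the 46 was at least 2-fold lower, a rule that 1.1% of all genes compared met, and none was at least 2-fold higher, which 3.65% met. At 1.5-fold, 5 were lower (10.9% of the 46, beside 6.07% of all genes compared) and none was higher (13% of all genes compared).

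The spread of the proteasome genes was narrow. Their differences ran from -0.63 to 0.16, with 25th and 75th percentiles of -0.39 and -0.20, whereas these percentiles were -0.23 and 0.35 over all genes compared. Abundant genes tended lower in these libraries, so genes of like level were set beside them: the 5147 genes with a mean of 29.9 to 341 TPM, the 10th to 90th percentile of the proteasome genes. Of those, 56.8% lay below 0, their median difference was -0.07 and 7.17% were at least 1.5-fold lower. Their 25th and 75th percentiles were -0.32 and 0.23, also wider apart than those of the proteasome genes. Read against that background, the share of proteasome genes below 0 stood well above it, while the share at least 1.5-fold lower was close to it. The 48 entries together held 7273 TPM in low glucose and 8954 TPM in high glucose, or 0.727% of all TPM in low and 0.895% in high glucose. In bulk RNA, fewer cells of a type and less RNA per cell cannot be told apart.

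**Figure D1:**
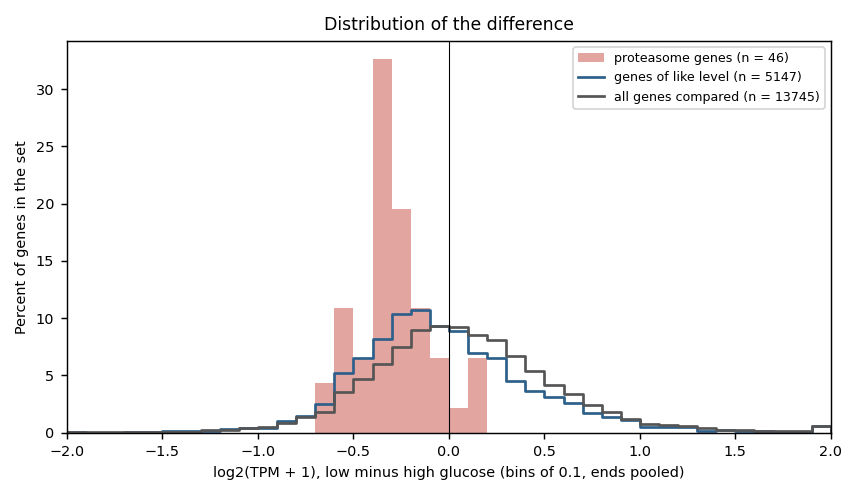
Percent of genes (vertical axis) in bins of 0.1 of the difference in log2(TPM + 1), low minus high glucose (horizontal axis, outermost bins pooled). Filled bars are the 46 proteasome genes and lines are the 5147 genes of like level and all 13745 genes compared; the bars pile up to the left of 0 between -0.63 and 0.16, inside a much wider background.

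The standard 26S proteasome, as far as the symbols cover it, has 31 subunit genes here: 7 alpha, 7 standard beta, 6 ATPase, 3 other base and 8 lid genes. Of these, 30 lay below 0 and the remaining gene was PSMA7. Their median was -0.35, and their summed level was 6153 TPM in low and 7606 TPM in high glucose, a ratio of 0.809. The 14 core genes summed to 3840 TPM in low and 4619 TPM in high glucose, and the 17 cap genes to 2313 TPM in low and 2987 TPM in high glucose. Per gene, the core averaged 274 TPM in low and 330 TPM in high glucose. This was 2.02 times the cap mean of 136 TPM in low glucose and 1.88 times the cap mean of 176 TPM in high glucose. The cap means leave out the abundant cap genes SHFM1 and ADRM1, which the symbols do not cover. SHFM1 stood at 408 TPM in low and 490 TPM in high glucose. ADRM1 stood at 313 TPM in low and 362 TPM in high glucose. The order of the members by level was nearly the same in both libraries, with a Spearman rho of 0.985 over the 46 genes, given as a description because all points come from the same 2 libraries. In the files, 22 of the 46 share at least 1 base with another entry, among them PSMC2 with SLC26A5, PSMC5 with FTSJ3, PSMD1 with HTR2B, PSMD6 with its antisense RNA, PSME1 with EMC9 and PSMG2 with CEP76. Without a stated strand setting these values are less certain, and the 24 genes free of overlap had a median of -0.33.

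**Figure D2:**
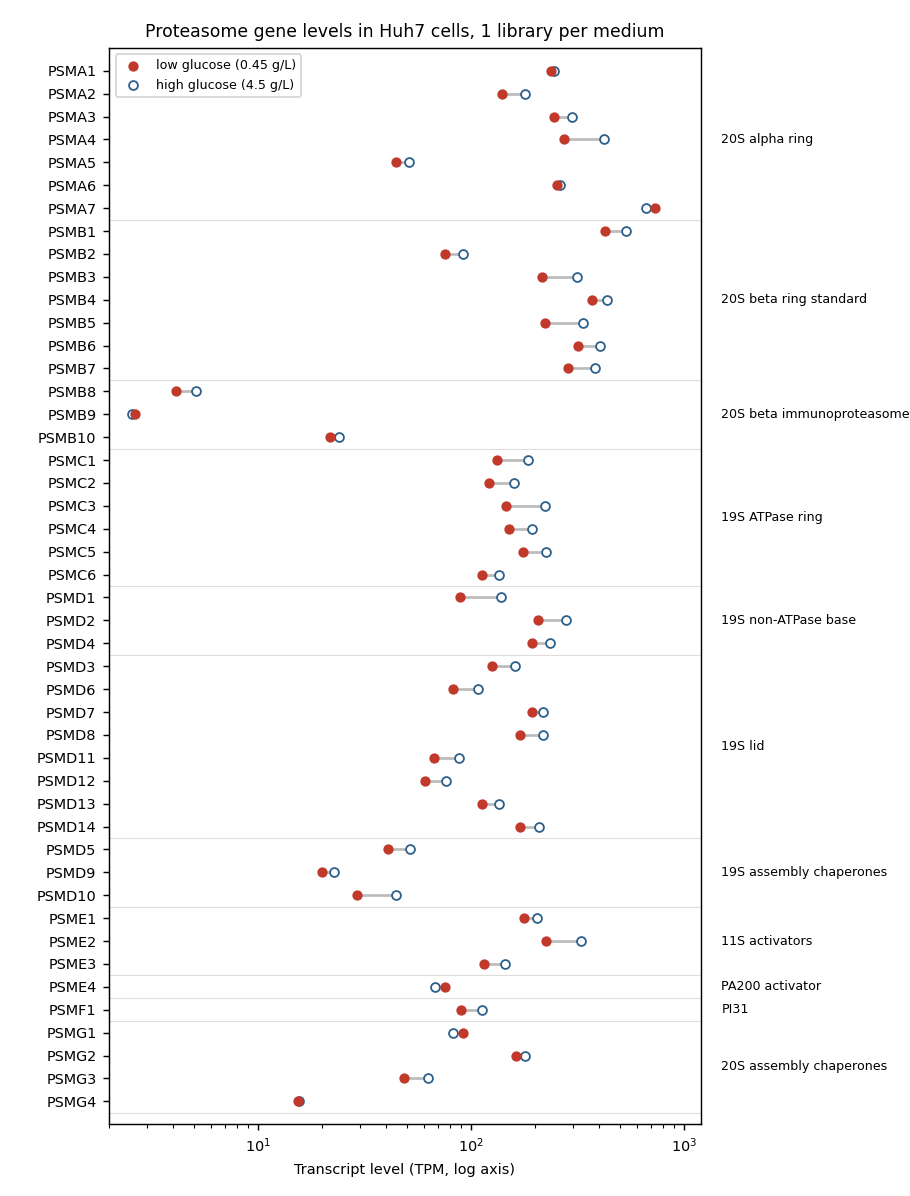
TPM on a log axis for the 46 proteasome genes compared, grouped by role, with filled points for low glucose and open points for high glucose, 1 library each. The filled point lies left of the open point for 42 genes and right of it for PSMA7, PSMB9, PSME4 and PSMG1.

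The alpha ring was the most uneven part of the core. Its 7 genes summed to 1925 TPM in low and 2121 TPM in high glucose, with a median difference of -0.19. PSMA7, the most abundant of all proteasome genes in both libraries (chromosome 20, 60711783 to 60718514), stood at 729 TPM in low and 665 TPM in high glucose, a difference of 0.13. PSMA4 (chromosome 15, 78832747 to 78841563), whose yeast counterpart helps to hold the gate shut, went the other way at 275 TPM in low and 421 TPM in high glucose (-0.61). These are the extremes of the ring, and the subunits they encode occur in equal number in each particle. PSMA1 stood at 237 TPM in low and 245 TPM in high glucose (-0.04). PSMA6 stood at 255 TPM in low and 261 TPM in high glucose (-0.03). Both were thus nearly level between the media. PSMA3 had 244 TPM in low and 298 TPM in high glucose, and PSMA2 had 140 TPM in low and 180 TPM in high glucose. PSMA5, the least abundant gene of the standard core, had 44.5 TPM in low and 51.0 TPM in high glucose. Within the ring the highest level was 16.4 times the lowest in low glucose and 13.0 times in high glucose.

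The standard beta ring was lower in all 7 genes. Its sum was 1915 TPM in low and 2499 TPM in high glucose, a ratio of 0.767, and its median difference was -0.34. PSMB5, which carries the chymotrypsin-like site that bortezomib blocks (chromosome 14, 23495060 to 23504429), stood at 222 TPM in low and 336 TPM in high glucose (-0.60). PSMB6, which carries the caspase-like site, stood at 320 TPM in low and 404 TPM in high glucose (-0.34). PSMB7, which carries the trypsin-like site, stood at 286 TPM in low and 383 TPM in high glucose (-0.42). All 3 cutting subunits were therefore lower, PSMB5 by the most. The 4 subunits without a cutting site spread more widely. PSMB3 stood at 216 TPM in low and 316 TPM in high glucose (-0.55). PSMB1 stood at 426 TPM in low and 533 TPM in high glucose (-0.32), and PSMB4 at 370 TPM in low and 434 TPM in high glucose (-0.23). PSMB2, the least abundant of the ring, stood at 75.7 TPM in low and 91.4 TPM in high glucose (-0.27). The beta sum over the alpha sum was 0.995 in low and 1.18 in high glucose.

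Immunoproteasome subunits were minor transcripts in both media. PSMB8, which replaces PSMB5, stood at 4.11 TPM in low and 5.09 TPM in high glucose (-0.25). PSMB9, which replaces PSMB6, was the lowest member above 0, at 2.64 TPM in low and 2.55 TPM in high glucose (0.04). PSMB10, which replaces PSMB7 and was by far the most abundant of the 3, stood at 21.8 TPM in low and 23.9 TPM in high glucose (-0.13). Set against the subunit each replaces, PSMB8 reached 1.85% of PSMB5 in low and 1.51% in high glucose. PSMB9 reached 0.825% of PSMB6 in low and 0.631% in high glucose, and PSMB10 reached 7.63% of PSMB7 in low and 6.24% in high glucose. All 3 ratios were somewhat higher in low glucose, and each standard subunit differed more between the media than the subunit that replaces it. At levels of 2.55 to 5.09 TPM a difference of this size rests on an unknown number of reads.

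**Figure D3:**
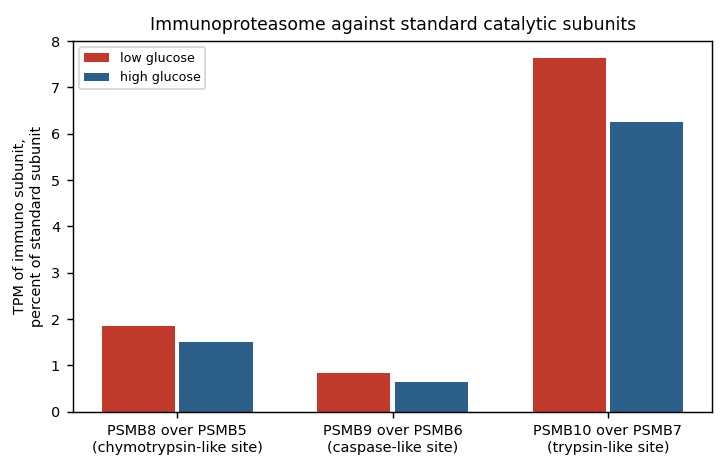
TPM of each immunoproteasome subunit as a percent of the standard subunit it replaces (vertical axis, from 0), for low glucose (left bar) and high glucose (right bar), 1 library each. The left bar is taller in all 3 pairs, and the highest value is 7.63% for PSMB10 over PSMB7.

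Leukocytes carry abundant immunoproteasomes, so their markers were read alongside. Of 5 immune markers, PTPRC stood at 0.50 TPM in low and 0.83 TPM in high glucose and CD3E at 0.07 TPM in low and 0.12 TPM in high glucose, so these defining markers were below 1 TPM. CD14 stood at 2.26 TPM in low and 3.04 TPM in high glucose. LYZ, the lysozyme gene, stood at 198 TPM in low and 550 TPM in high glucose and made up nearly all of the summed marker level of 200.5 TPM in low and 554 TPM in high glucose. Only CD14 and LYZ of these 5 reached the level compared, and LYZ alone was at least 2-fold lower in low glucose; its part in the proteasome values was not tested. Among markers of fibroblasts and endothelium, DCN stood at 0.07 TPM in both libraries, and COL1A1 at 4.03 TPM in low and 1.06 TPM in high glucose, the only one at least 2-fold higher. PDGFRB stood at 8.82 TPM in low and 8.12 TPM in high glucose, PECAM1 at 1.25 TPM in low and 1.35 TPM in high glucose, and CDH5 at 0.89 TPM in low and 0.74 TPM in high glucose.

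PSMB8 and PSMB9 lie in the major histocompatibility region of chromosome 6, on either side of TAP1, a subunit of the peptide transporter. On hg19, PSMB8 spans 32808494 to 32812712, TAP1 32812986 to 32821748 and PSMB9 32821938 to 32827628, and 189 bases separate TAP1 from PSMB9. TAP1 stood at 7.42 TPM in low and 4.85 TPM in high glucose (0.53), while the adjacent PSMB9 was nearly level. PSMB8 overlaps the entry TAPSAR1 in these files, so reads of the pair may not be separable.

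The ATPase ring of the cap was lower in all 6 genes, which kept close to each other. The highest level in this ring was 1.56 times the lowest in low and 1.65 times in high glucose, the tightest of the rings. Its sum was 840 TPM in low and 1120 TPM in high glucose, and its median difference was -0.37. PSMC3 (chromosome 11, 47440320 to 47448024) stood at 147 TPM in low and 222 TPM in high glucose (-0.60). PSMC1, whose yeast counterpart opens the gate of the core, stood at 132 TPM in low and 185 TPM in high glucose (-0.48). Those were the largest differences of the ring. PSMC2 had 121 TPM in low and 159 TPM in high glucose (-0.39), PSMC4 had 152 TPM in low and 195 TPM in high glucose (-0.36), and PSMC5 had 176 TPM in low and 224 TPM in high glucose (-0.35). PSMC6, at 113 TPM in low and 136 TPM in high glucose, showed the smallest difference (-0.27).

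Among the other base subunits, PSMD1, the larger scaffold of the base (chromosome 2, 231921578 to 232037540), showed the lowest difference of all members. It stood at 89.3 TPM in low and 138 TPM in high glucose (-0.63), or 35.4% lower in low glucose. PSMD2, the scaffold on which shuttle factors dock, stood at 207 TPM in low and 280 TPM in high glucose (-0.44). PSMD4, a ubiquitin receptor, stood at 193 TPM in low and 236 TPM in high glucose (-0.29). All 3 were lower.

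The 8 lid genes were also all lower, within the narrow range of -0.40 to -0.16 and with a median of -0.34. PSMD14, the deubiquitinase that strips ubiquitin from substrates as they enter, stood at 171 TPM in low and 209 TPM in high glucose (-0.29). PSMD7, its partner subunit, stood at 194 TPM in low and 217 TPM in high glucose (-0.16). PSMD11, which clamps the lid to the core, stood at 66.8 TPM in low and 88.1 TPM in high glucose (-0.40). These span the range of the lid, with PSMD7 nearest to level and PSMD11 farthest from it. The structural subunit PSMD6 had 82.0 TPM in low and 108 TPM in high glucose (-0.39). PSMD3 had 125 TPM in low and 161 TPM in high glucose, and PSMD8 had 171 TPM in low and 219 TPM in high glucose, with a difference of -0.36 for each. The least abundant lid gene was PSMD12, at 61.2 TPM in low and 76.4 TPM in high glucose (-0.32), and PSMD13 had 113 TPM in low and 135 TPM in high glucose (-0.25).

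**Figure D4:**
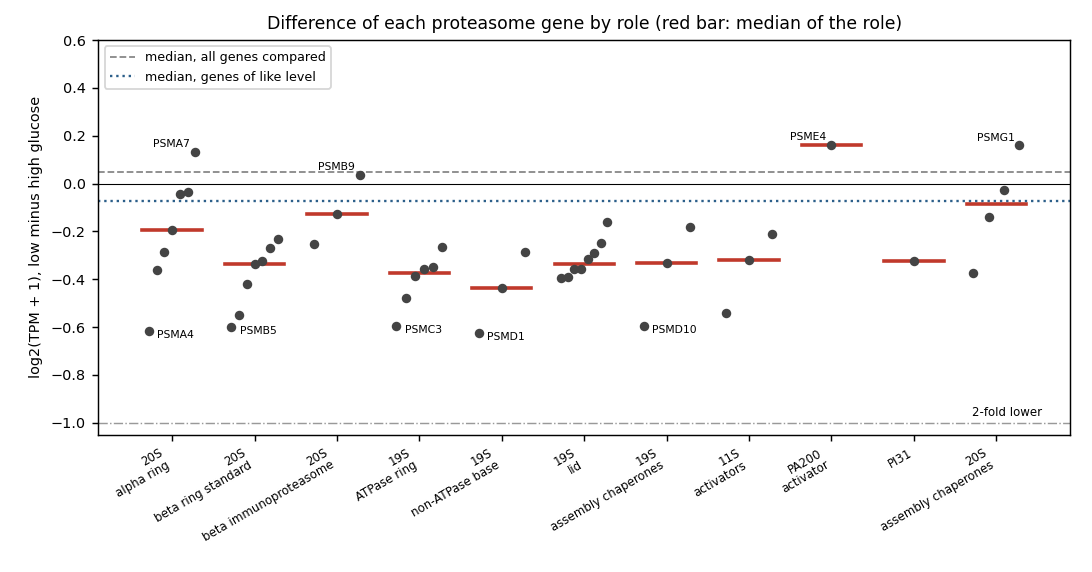
Difference in log2(TPM + 1), low minus high glucose (vertical axis), of each of the 46 proteasome genes compared, by role; bars are the median of each role, and the dashed and dotted lines are the medians of all genes compared (0.05) and of genes of like level (-0.07). All 17 cap subunits and all 7 standard beta subunits lie below 0, and no gene reaches 2-fold.

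Assembly factors of the cap were lower and those of the core were mixed. Of the cap chaperones, PSMD10 (gankyrin, known as an oncoprotein of liver cancer; chromosome X, 107327435 to 107334874) stood at 29.2 TPM in low and 44.7 TPM in high glucose (-0.59). PSMD5 stood at 41.0 TPM in low and 51.8 TPM in high glucose (-0.33), and PSMD9 at 19.9 TPM in low and 22.7 TPM in high glucose (-0.18). The 4 chaperones that build the alpha ring had a median of -0.08. PSMG1 (chromosome 21, 40547372 to 40555440) stood at 92.2 TPM in low and 82.4 TPM in high glucose (0.16). PSMG2, with which it forms a dimer, stood at 162 TPM in low and 179 TPM in high glucose (-0.14). The partners thus lay on opposite sides of 0, by small amounts. PSMG3 stood at 48.5 TPM in low and 63.1 TPM in high glucose (-0.37), and its partner PSMG4 at 15.3 TPM in low and 15.7 TPM in high glucose (-0.03). Summed, these 4 held 318 TPM in low and 340 TPM in high glucose, a ratio of 0.937, closer to level than the 0.809 of the 26S subunits.

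The alternative caps showed both directions. PSME1 and PSME2 encode the interferon-inducible 11S activator and lie next to each other on chromosome 14, at 24605367 to 24608176 and 24612574 to 24615855, with 4397 bases between them. PSME1 stood at 177 TPM in low and 205 TPM in high glucose (-0.21). PSME2 stood at 225 TPM in low and 328 TPM in high glucose (-0.54). Both were lower, PSME2 by more. PSME3, the nuclear form of this activator, stood at 115 TPM in low and 144 TPM in high glucose (-0.32). PSME4 (PA200, a nuclear activator that needs no ubiquitin; chromosome 2, 54091204 to 54197977) stood at 75.9 TPM in low and 67.8 TPM in high glucose, and its difference of 0.16 was the highest of the 46. PSMF1 (PI31), named as an inhibitor of the core and known as an adaptor for its transport, stood at 89.6 TPM in low and 112 TPM in high glucose (-0.32).

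As a description, the promoters of the members were searched for the letters of known promoter elements. RefSeq promoters (GRCh38.p14, 250 bases before to 50 after each start) were matched by symbol for 42 of the 48 genes, as 51 promoters; PSMA7, PSMB1, PSMB6, PSMB7, PSMD4 and PSMG3 were not matched. Both strands were searched, and base composition was not corrected for. TGACNNNGC, the stricter core of the antioxidant response element that NFE2L1 and NFE2L2 recognise with small MAF partners, was found in 15 member promoters (29.4%) and in 13.3% of all 35116 promoters. The looser TGANNNNGC, of which the stricter pattern is a subset, was found in 62.7% of member promoters and 41.8% of all. CCAAT was found in 39.2% of member promoters and 34.6% of all, and TGATGNAA, the core of the element bound by ATF4 with C/EBP factors, in 1 member promoter, that of PSMF1, and 3.62% of all. These are matches of letters and not sites shown to be bound.

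The median difference was -0.36 over the 19 compared genes with CCAAT and -0.25 over the 21 without it. For TGANNNNGC it was -0.29 over 26 genes with the pattern and -0.34 over 14 without. No difference between such medians was tested. Members with and without TGACNNNGC had medians close to each other. The 15 genes with it had a median difference of -0.33 with 12 below 0, and the 25 matched and compared genes without it had a median of -0.29 with 25 below 0. Of the 4 members above 0, PSMB9, PSME4 and PSMG1 carried it and PSMA7 was not matched. PSMB9 stood at only 2.64 TPM in low and 2.55 TPM in high glucose, and its sign changed with the scaling. Stretches with the pattern in capitals, on the strand of the gene and wholly before its start, are shown for PSMB3, at the low end of the differences, and for PSME4, PSMG1 and PSMB9. They are chr17:38752607-38752675 (plus strand), chr2:53970994-53971057 (minus strand), chr21:39183596-39183664 (minus strand) and chr6:32854014-32854082 (plus strand) on GRCh38.p14; in PSME4 and PSMB9 the capitals show the pattern's reverse complement.
PSMB3: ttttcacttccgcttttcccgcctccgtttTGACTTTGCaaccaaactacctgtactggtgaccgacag
PSME4: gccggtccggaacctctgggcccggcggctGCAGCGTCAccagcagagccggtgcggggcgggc
PSMG1: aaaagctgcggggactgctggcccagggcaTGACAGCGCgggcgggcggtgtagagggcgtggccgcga
PSMB9: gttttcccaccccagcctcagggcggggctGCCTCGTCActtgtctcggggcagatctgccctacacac

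The core of the interferon-stimulated response element, written as GAAA, any 2 bases and GAAA again, was found in 7 member promoters (13.7%) and in 3.57% of all promoters. The 7 genes were PSMA4, PSMB4, PSMB8, PSMB10, PSME1, PSME2 and PSMG4, which include the interferon-inducible PSMB8, PSMB10, PSME1 and PSME2. All 7 lay below 0, beside 91.3% of the 46 proteasome genes compared and 45.3% of all genes compared. Their median difference was -0.23. Of the 33 matched and compared members without this pattern, 30 lay below 0 and the median was -0.32. PSMB10 and PSME2 are shown because they hold the same 10 letters close to the start; they are chr16:67936851-67936901 and chr14:24146611-24146668 on GRCh38.p14, both on the minus strand, with the pattern in capitals.
PSMB10: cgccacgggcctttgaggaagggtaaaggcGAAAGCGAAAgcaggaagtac
PSME2: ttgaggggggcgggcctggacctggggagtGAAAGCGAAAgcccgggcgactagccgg

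Genes that control proteasome transcription went against the proteasome genes themselves. NFE2L1 (NRF1), the factor that raises proteasome transcription when proteasomes are inhibited, stood at 273 TPM in low and 117 TPM in high glucose (1.21). Its small MAF partners were also at least 2-fold higher: MAFG stood at 67.8 TPM in low and 21.4 TPM in high glucose (1.62), MAFF at 62.0 TPM in low and 22.3 TPM in high glucose (1.44), and MAFK at 47.5 TPM in low and 17.2 TPM in high glucose (1.41). Of the 8 genes on this list, 4 were at least 2-fold higher, beside 3.65% of all genes compared. Above 0 lay 7 of the 8 (87.5%, beside 54.6% of all genes compared), and the median difference was 0.97. Without entries that overlap another, 4 genes remained, of which 1 was at least 2-fold higher, and their median was 0.636; NFE2L1 and MAFG overlap microRNA entries in the files, and MAFK overlaps TMEM184A. The exception was NFE2L2 (NRF2), the related factor of the antioxidant response, at 229 TPM in low and 347 TPM in high glucose (-0.60). The related NFE2L3, the competing repressor BACH1 and NGLY1, the glycanase that NFE2L1 needs for its activity, had differences of 0.73, 0.54 and 0.29. NFE2L1 is controlled largely at the level of its protein, which was not measured.

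Of 12 proteasome partners that the symbol rule does not cover, 9 lay below 0 (75%, beside 56.8% of genes of like level and 45.3% of all genes compared). None reached 2-fold, and the median was -0.15, beside -0.07 for genes of like level. The most abundant were SHFM1, the smallest lid subunit, at 408 TPM in low and 490 TPM in high glucose (-0.26), and ADRM1, a ubiquitin receptor of the cap, at 313 TPM in low and 362 TPM in high glucose (-0.21). Chosen after their values were seen, POMP, the maturation factor of the core, stood at 114 TPM in low and 144 TPM in high glucose (-0.33), and ZFAND5, an activator of the 26S proteasome, stood at 138 TPM in low and 95.8 TPM in high glucose (0.53). ZFAND5 and KIAA0368 (ECM29, a proteasome adaptor, 0.30) were the clearest exceptions.

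Upstream of the proteasome no gene of the lists reached 2-fold. Of 6 ubiquitin and ubiquitin-activating genes, 4 lay below 0 (66.7%, beside 56.8% of genes of like level and 45.3% of all genes compared). The median was -0.12, beside -0.07 for genes of like level. Over the genes whose interval no other entry overlaps it was -0.223. The most abundant ubiquitin gene, UBB, stood at 1547 TPM in low and 1976 TPM in high glucose (-0.35), and RPS27A, which encodes ubiquitin fused to a ribosomal protein, at 1301 TPM in low and 1321 TPM in high glucose (-0.02). Of 12 genes of the unfoldase p97 and the shuttle factors that bring substrates, 9 lay below 0 (75%, beside the same shares). None was past 2-fold, and their median was -0.10, also beside -0.07 for genes of like level. Without overlapping entries the median was -0.264. VCP, which encodes p97, stood at 275 TPM in low and 361 TPM in high glucose (-0.39).

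Downstream, genes of peptide presentation and interferon control went the other way from the proteasome genes. Of 20 genes, 18 were compared and 14 lay above 0 (77.8%, beside 54.6% of all genes compared). None reached 2-fold, and the median was 0.35, beside 0.05 for all genes compared. B2M, the light chain of class I molecules, stood at 672 TPM in low and 687 TPM in high glucose (-0.03). The activators NLRC5 and CIITA of histocompatibility genes were below the level compared. NLRC5 stood at 0.17 TPM in low and 0.08 TPM in high glucose, and CIITA at 0.18 TPM in low and 0.03 TPM in high glucose. The immunoproteasome genes had a median of -0.13 beside this.

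**Figure D5:**
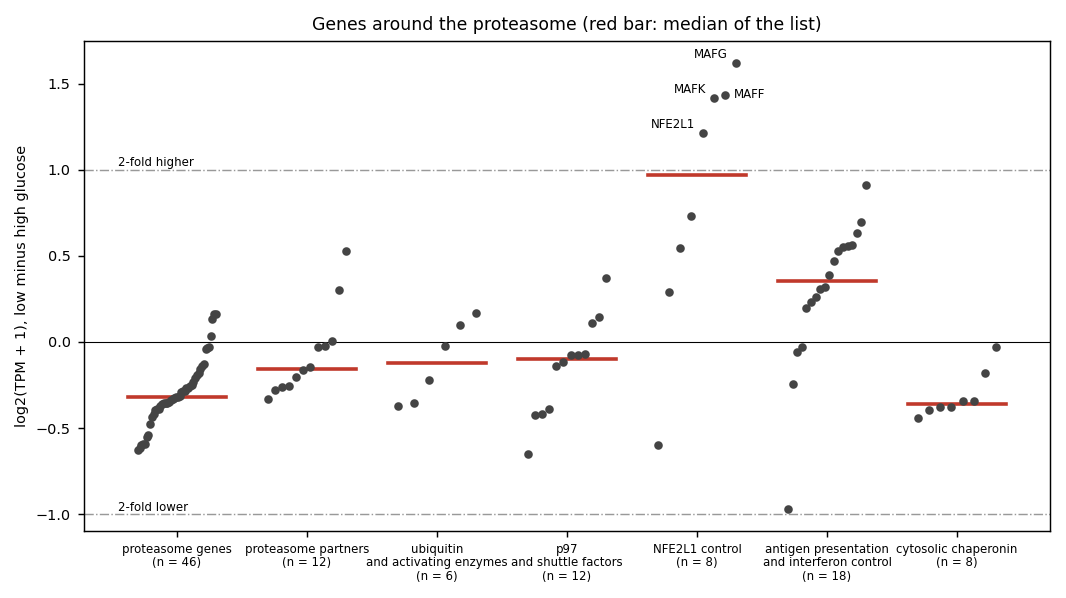
Difference in log2(TPM + 1), low minus high glucose (vertical axis), of the proteasome genes and of genes on 6 related lists; each point is a gene, bars are medians, and lines mark 2-fold. NFE2L1 and the MAF genes stand above the 2-fold line, while the medians of the proteasome genes (-0.32) and of the cytosolic chaperonin (-0.36) lie close together below 0.

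Another many-subunit complex differed by about as much. All 8 genes of the cytosolic chaperonin, which folds actin and tubulin, lay below 0, beside 45.3% of all genes compared and 56.8% of genes of like level. Their 25th and 75th percentiles were -0.38 and -0.30, a narrower spread than the -0.39 and -0.20 of the proteasome genes. Their median was -0.36, with a summed level of 2688 TPM in low and 3335 TPM in high glucose. Cytosolic ribosomal protein genes did not share this: of 80 compared among 81 entries, 42 lay below 0 and 38 above, with a median of -0.02 and a sum of 137857 TPM in low and 136416 TPM in high glucose. The medians are set side by side as descriptions of 2 libraries, and the differences between these complexes were not tested.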

How the data were processed

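RNA-seq of Huh7 cells was available as 1 library per medium (low and high glucose), grouped by the treatment label; no batch is named. The deposited values are TPM per gene, per the file headers, each library summing to 1000000. Per the submitters' processing notes, build hg19, RSEM 1.2.21 (which divides reads shared between genes) and cutadapt were used. The sources used here give no aligner, annotation, strand setting or read number. Because TPM fixes the total, a gene that takes more of it lowers all others.

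From these TPM, genes with a mean of at least 1 TPM were compared by log2(TPM + 1), low minus high glucose, with a 2-fold rule at 1 or -1. No test was possible. Coordinates are the files' hg19 intervals; promoter sequences are RefSeq's, on GRCh38.p14. Every member was to be named; of other lists, the 2 most abundant genes and all past 2-fold, except where stated; some list genes are not reported here. The members, lists and alternatives were chosen with earlier results of these data known. Alternatives were pseudocounts of 0.1 and 5, no filter or 10 TPM, 4 scalings, 1.5-fold and 3-fold rules, and entries free of overlap. The calculation and the 2-fold call were tested on simulated data with planted changes larger than 2-fold. That does not show how reliable differences as small as those of the proteasome genes are. Python 3.11.15, pandas 2.3.3 and numpy 2.4.6 were used.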

Additional observations from a re-analysis of the deposited data

How the results depend on the processing

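The median difference of the 46 proteasome genes stayed between -0.38 and -0.29 over the 11 alternatives. The 1.5-fold and 3-fold rules could not move it, because they change only which genes are called. No alternative with the 2-fold rule put a member past it. Over the pseudocounts and scalings, 1 member changed sign, PSMB9 (-0.01 to 0.06); scalings moved the median of all genes compared by less than 0.1. With the 1.5-fold rule, 5 proteasome genes, 4 of them standard 26S subunits, 1 p97 gene (UFD1L), 1 gene of the NFE2L1 list (NFE2L2) and 1 presentation gene (IRF2) were lower, and 3 presentation genes were higher. With the 3-fold rule 1 gene of the NFE2L1 list was higher. IRF2 was also 1 gene at least 2-fold lower with a pseudocount of 0.1, median-of-ratios or trimmed-mean scaling. Restricted to entries that no other interval overlaps by 1 base, 21 of 24 proteasome genes and 15 standard 26S genes lay below 0. So restricted, the ubiquitin list had 1 gene above and 2 below 0 (median -0.223), the p97 list 1 above 0 (median -0.264), the NFE2L1 list 4 above and 0 below 0 with 1 past 2-fold (median 0.636), and the presentation list 5 above and 2 below 0 (median 0.469); fewer genes enter each. Of the members, 22 overlap another entry, some of them entries whose interval spans distant copies. No paired analysis was possible because each medium has 1 library. The depth is unknown, so the lowest members (PSMB8, PSMB9) are the least certain.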
